A study of Mus musculus with 4 samples.

Results

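Magi1 and Magi3 are 2 of the 16673 genes in a table of RNA abundance from Lin- bone marrow cells, the fraction of mouse marrow left after cells bearing mature lineage markers are removed. Magi1 was selected on these data, because its value was far lower in the libraries labelled cKO, so its difference between genotypes is given as a description with no test. Magi3 was taken by name as its paralog, to ask whether its RNA was higher where that of Magi1 was lower. The cKO mice were Tie2+/cre; Tet3F/F and the control mice were Tet3F/F, with 2 mice per genotype, all 2 months old. Both genotypes carried the floxed Tet3 alleles, and the control mice carried no Cre. Tie2 is the product of Tek, and Tie2-driven Cre acts in endothelium and in the early blood progenitors that arise from it, so the recombination was not limited to adult marrow cells. Tet3 encodes an enzyme that oxidises 5-methylcytosine in DNA.

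MAGI proteins are membrane-associated guanylate kinase scaffolds with an inverted domain order. They carry WW domains, several PDZ domains and a guanylate kinase-like domain, and they hold other proteins at cell contacts. MAGI1 and MAGI3 are found at tight and adherens junctions of epithelium and MAGI1 also at those of endothelium, and MAGI2 is best known from synapses and from the podocytes of the kidney. Their known partners include beta-catenin, which links cadherins to the actin cytoskeleton, and through their partners they are tied to PI3K and AKT signalling.

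The sequences around the annotated starts are shown because CG dinucleotides are the main place of the DNA methylation on which TET enzymes act. Methylation was not measured in these libraries. RefSeq windows from 250 bases before to 50 bases after a start are given on build GRCm38.p6, a different build from the mm39 genome used for the reads. All are on the minus strand, written 5' to 3', with every CG in capitals.
Magi1, chr6:93912914-93913213: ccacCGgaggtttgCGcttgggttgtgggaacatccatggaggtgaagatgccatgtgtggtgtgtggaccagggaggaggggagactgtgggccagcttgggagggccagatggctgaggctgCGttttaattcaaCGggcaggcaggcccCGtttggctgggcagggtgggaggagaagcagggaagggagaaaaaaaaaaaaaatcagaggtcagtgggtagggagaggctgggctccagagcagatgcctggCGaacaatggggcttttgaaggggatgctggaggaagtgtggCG
Magi1, chr6:93913641-93913940: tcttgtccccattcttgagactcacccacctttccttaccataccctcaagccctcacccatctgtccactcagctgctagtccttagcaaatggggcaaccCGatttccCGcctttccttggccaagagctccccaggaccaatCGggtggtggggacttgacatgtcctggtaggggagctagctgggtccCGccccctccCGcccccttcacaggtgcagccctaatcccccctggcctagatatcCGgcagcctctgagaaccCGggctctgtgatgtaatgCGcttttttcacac
Magi3, chr3:104220357-104220656: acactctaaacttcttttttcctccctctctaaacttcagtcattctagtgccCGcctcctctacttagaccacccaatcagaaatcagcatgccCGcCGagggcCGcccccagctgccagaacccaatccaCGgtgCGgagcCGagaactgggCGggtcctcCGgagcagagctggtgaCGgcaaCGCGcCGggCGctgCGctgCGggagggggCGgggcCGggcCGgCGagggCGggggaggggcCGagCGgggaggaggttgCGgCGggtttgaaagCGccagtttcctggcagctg
The Magi1 windows held 7 and 8 CG, both close to the median of 7 over 32851 such windows, and the Magi3 window held 26. At least as many CG were present in 52.1% and 48.7% of all windows for the 2 Magi1 starts, and in 16.9% for the Magi3 start. Both Magi1 windows begin far inside the gene, 371 kb and 370.2 kb from its 5' end in the RefSeq annotation, whereas the Magi3 window lies at the gene's 5' end. No window at the 5' end of Magi1 was available, so the CG counts of Magi1 and Magi3 come from starts in unlike places. The deposited values are 1 per gene, so they do not show which start was used.

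The libraries held 28845037 and 30020188 reads on genes in cKO mice 1 and 2, against 39199593 and 46673855 in control mice 1 and 2. Total Tet3 RNA was not lower in the libraries labelled cKO: its normalised read count was 6400 and 5084, against 5056 and 6593 in the libraries labelled control, and the limma estimate was a log2 fold change of -0.02 (SE 0.22, adjusted p = 0.99). A gene-level count does not resolve the floxed exons, so it does not check the deletion. Xist was 87442 and 48951 in the cKO libraries, against 5.54 and 9.57 in the control libraries, and Ddx3y was at 0 in both cKO libraries, against 3158 and 3672, so sex and genotype cannot be told apart. The control libraries also differed more from each other than the cKO libraries did: the share of reads on 33 mitochondrial genes was 1.27% and 0.993% in cKO mice, against 1.09% and 8.21% in control mice.

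Magi1 was low in both cKO libraries, with a normalised read count of 23.3 and 18.4, against 434 and 659 in the control libraries. These values came from 20 and 16 reads in cKO mice 1 and 2, with 95% Poisson intervals of 14.3 to 36.1 and 10.5 to 29.9 in normalised counts, and from 470 and 826 reads in the control mice, with intervals of 396 to 475 and 615 to 705. The groups were far apart, and the RNA remained detectable in both cKO libraries. The intervals cover counting error only. The mean was 20.9 ± 3.51 in cKO mice and 546 ± 159 in control mice (SD, n = 2 each), a ratio of 26.2-fold lower in cKO mice. On the log2 scale with 1 added to each value the difference was -4.62 (SE 0.44), the quantity on which the gene was chosen. In bulk RNA, fewer cells that carry a transcript and less of it per cell cannot be told apart.

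Placed among all genes of its own library, Magi1 lay at the low end of the range in cKO mice, against the middle in control mice. Of the genes in the table, 12.4% and 9.49% had a lower count than Magi1 in the cKO libraries, against 45.6% and 50.7% in the control libraries. Among the 12882 genes with a mean of at least 50, its log2 fold change ranked 7 from the lowest. This rank restates the value on which Magi1 was chosen. The places below it include the Y-linked genes Ddx3y, Eif2s3y, Kdm5d and Uty, all at 0 in both cKO libraries.

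Magi3 was not measurably higher in the cKO libraries. Its normalised read count was 301.2 and 326.3 in cKO mice 1 and 2, against 361.9 and 226.5 in control mice 1 and 2. Both cKO values lay between the 2 control values, so the groups overlapped. The means were 314 ± 17.7 in cKO mice and 294 ± 95.7 in control mice (SD, n = 2 each). The log2 fold change was 0.13 (SE 0.33), with a 95% interval of -0.65 to 0.91, and an adjusted p of 0.93 by limma with Benjamini-Hochberg adjustment. As a ratio the estimate was 1.09 and its interval ran from 0.638 to 1.88, so differences of that size in either direction lay within the error of 2 mice per group. The sign rested on control mouse 2: without it the log2 fold change was -0.21, and over the 4 fits that each left out 1 library it lay between -0.21 and 0.47.

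Magi2, the remaining member of the family, was the lowest of the 3 per unit of length in control mice. Its normalised read count was 58.4 and 94.2 in cKO mice, against 77.6 and 106.9 in control mice. The groups overlapped, and the log2 fold change was -0.29 (SE 0.49, 95% interval -1.43 to 0.85, adjusted p = 0.89 by limma).

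**Figure D1:**
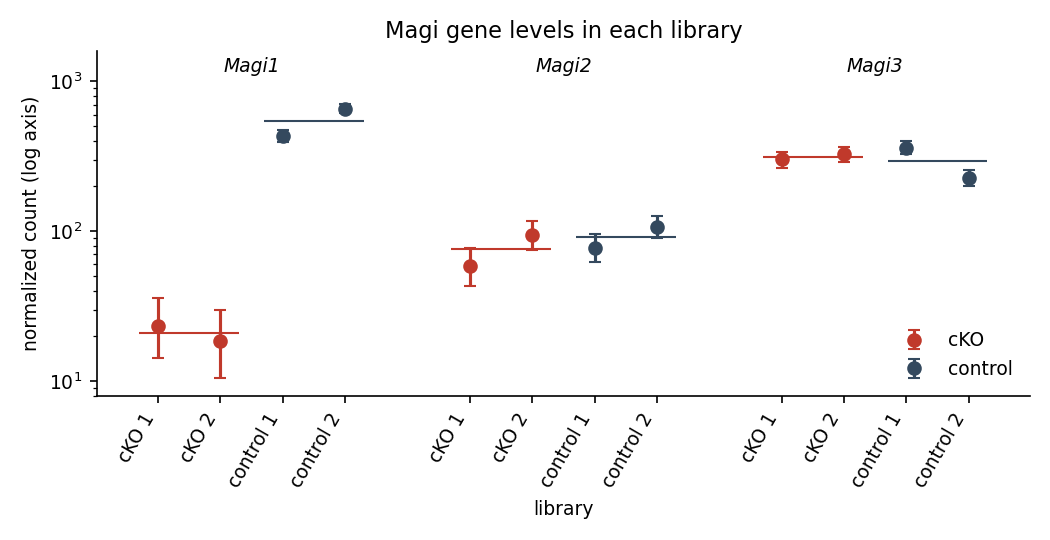
Normalised read counts of Magi1, Magi2 and Magi3 on a log axis, with 1 point per library, cKO left of control, vertical bars for 95% Poisson intervals of the reads and horizontal lines at the group means. Magi1 lies near 20 in cKO mice against 434 and 659 in control mice, while the Magi3 points of the genotypes overlap between 226.5 and 361.9.

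Levels of different genes were compared per kilobase of exon, using the union of annotated exons, 10579 bases for Magi1, 11348 for Magi2 and 8520 for Magi3. Magi1 had 2.21 and 1.74 normalised reads per kb in cKO mice, against 41.0 and 62.3 in control mice. Magi3 had 35.4 and 38.3 per kb in cKO mice, against 42.5 and 26.6 in control mice. In control mouse 1 the paralogs were therefore almost level and in control mouse 2 Magi1 was the higher, whereas in both cKO mice Magi3 was more than 10 times higher. The ratio of Magi3 to Magi1 per kb was 16.0 and 22.0 in cKO mice, against 1.04 and 0.427 in control mice. Magi1 made up 5.88% and 4.34% of the pair per kb in cKO mice, against 49.1% and 70.1% in control mice.

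The summed level of the paralogs was lower in cKO mice. Magi1 and Magi3 together had 37.6 and 40.03 normalised reads per kb in cKO mice, against 83.5 and 88.9 in control mice, and the groups did not overlap. The means were 38.8 ± 1.75 in cKO mice and 86.2 ± 3.79 in control mice (SD, n = 2 each), 2.22-fold lower in cKO mice. Without correction for length, the summed normalised read count was 324.5 and 344.7 in cKO mice, against 795.9 and 885.3 in control mice, a log2 difference of -1.33. This sum includes the gene chosen for its fall, so it is a description with no test. Adding Magi2 left the order as it was, at 42.7 and 48.3 per kb in cKO mice against 90.3 and 98.3 in control mice.

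The mean of Magi1 was 49.7 normalised reads per kb lower in cKO mice, and that of Magi3 was 2.29 per kb higher. The difference in Magi3 had the opposite sign without control mouse 2, at -5.66 per kb. For the summed level per kb to equal that of the control mice, with the means of Magi1 as measured, Magi3 would have had to be 2.44-fold higher in cKO mice, and its measured ratio of means was 1.07. With 1 library left out the needed fold lay between 1.92 and 3.27. With the longest transcript of each gene in place of the union of exons, a setting chosen after seeing the data, it was 2.50. These folds take the chosen fall of Magi1 as given, without its error, so they describe these mice and test nothing.

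**Figure D2:**
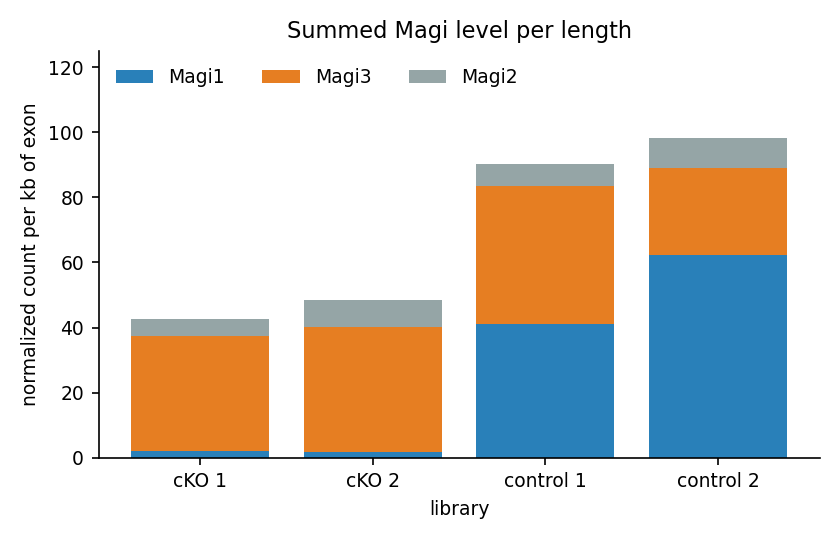
Normalised read counts per kb of exon in each mouse, cKO mice left of control mice, with the Magi family members stacked. The cKO bars reach 42.7 and 48.3 and consist mainly of Magi3, against 90.3 and 98.3 in control mice, where Magi1 takes up a large part.

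Few genes differed between the genotypes at the threshold, which is the background for every count that follows. Of 16598 genes with a mean of at least 10, 12 passed an adjusted p of 0.05 by limma (0.0723%), with 5 higher in cKO mice and 7 lower (0.0422%). With X and Y genes left out of the fit, 2 passed, 1 higher and 1 lower, so most of the 12 did not pass without the sex chromosomes. At an unadjusted p under 0.05 there were 1013 genes (6.10%), and DESeq2 called 112 of 15954 genes with an adjusted p (0.702%). Complete separation of the groups was common: 6427 genes did not overlap between genotypes (38.7%), of which 3236 were lower in cKO mice (19.5%). The median log2 fold change of all genes tested was 0.01.

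The genes around the Magi proteins were read from 5 lists: the wider membrane-associated guanylate kinase family, known MAGI binding partners, tight junction and polarity genes, adherens junction genes, and the PI3K and AKT pathway. Of their 105 distinct tested genes, 0 passed by limma and 0 by edgeR, 1 passed by DESeq2, and 7 had an unadjusted p under 0.05 by limma (6.67%, beside 6.10% of all genes). The values below therefore describe genes that did not pass limma.

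In the guanylate kinase family, 17 of 19 genes were tested, with a median log2 fold change of 0.08, and 7 did not overlap between genotypes (41.2%), 6 of them higher in cKO mice. Dlg4, the postsynaptic scaffold PSD-95, had 1184 and 928 normalised reads in cKO mice, against 691 and 613 in control mice (log2 fold change 0.69, SE 0.24). Mpp5, the PALS1 scaffold of the Crumbs polarity complex, had 979 and 742 in cKO mice, against 672 and 595 in control mice. Both of these were separated by genotype, whereas their family member Mpp2 had 121 and 66.6 in cKO mice, against 102 and 306 in control mice. Adjusted p-values of these genes were 0.756 to 0.758 by limma.

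Of the MAGI binding partners, 14 of 20 were tested, with a median of 0.21, and 5 did not overlap between genotypes, all higher in cKO mice (35.7%). Amot, the junction protein angiomotin, had 940 and 870 normalised reads in cKO mice, against 711 and 260 in control mice (log2 fold change 1.07, SE 0.44, adjusted p = 0.756 by limma). Vangl2, a planar cell polarity membrane protein, had 780 and 694 in cKO mice, against 647 and 487 in control mice. These differences were small beside that of Magi1. Rapgef2, an exchange factor for the GTPase Rap, had 1193 and 902 in cKO mice, against 1115 and 502 in control mice, and overlapped. Ctnnb1, which encodes beta-catenin, overlapped as well, at 12832 and 13005 in cKO mice, against 13470 and 9613 in control mice; it was named after its values were seen.

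Of the tight junction and polarity genes, 28 of 39 were tested, with a median of 0.21, and 13 did not overlap (46.4%), 9 higher and 4 lower in cKO mice. Pard3b, a relative of the polarity scaffold PAR3, had 299 and 278 normalised reads in cKO mice, against 136 and 152 in control mice (log2 fold change 1.0, SE 0.32, adjusted p = 0.756 by limma). Cldn12, a claudin of the tight junction, had 245 and 358 in cKO mice, against 207 and 187 in control mice. Jam2, a junctional adhesion molecule, was near the detection limit, at 16.3 and 23.0 in cKO mice, against 9.23 and 1.60 in control mice. Of the adherens junction genes, 23 of 24 were tested, with a median of 0.08, and 6 did not overlap (26.1%). Plekha7, a protein of the zonula adherens, had 203 and 157 in cKO mice, against 84.9 and 78.2 in control mice (1.12, SE 0.40, adjusted p = 0.756 by limma). Jup, which encodes plakoglobin, had 437 and 407 in cKO mice, against 257 and 271 in control mice. Both had cKO values above both control values, whereas Cdh2, which encodes N-cadherin, had 39.7 and 11.5 in cKO mice, against 40.6 and 67.0 in control mice. Pecam1, an adhesion molecule of endothelium and blood cells, had 5192 and 4228 in cKO mice, against 4222 and 2922 in control mice, values that nearly met.

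Of the PI3K and AKT pathway genes, all 31 were tested, with a median of 0.21, and 14 did not overlap (45.2%), 10 higher and 4 lower in cKO mice. Inpp4b, a phosphatase that acts on a phosphoinositide product of PI3K, had 886 and 550 normalised reads in cKO mice, against 300 and 215 in control mice. Its log2 fold change was 1.45 (SE 0.33) with an adjusted p of 0.66 by limma, and it was the only list member called by DESeq2 (1.48, adjusted p = 0.0163). Inppl1, a phosphatase that acts on the direct product of PI3K, had 1356 and 904 in cKO mice, against 591 and 450 in control mice (1.10, SE 0.28, adjusted p = 0.727 by limma). Both phosphatases were separated by genotype with every cKO value above every control value. Pik3r6, a regulatory subunit of PI3K, had 912 and 835 in cKO mice, against 1167 and 1228 in control mice (-0.46, SE 0.21, adjusted p = 0.756 by limma). With 1 library left out at a time, the median of this list lay between 0.03 and 0.30, and that of the adherens junction list between -0.04 and 0.20.

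**Figure D3:**
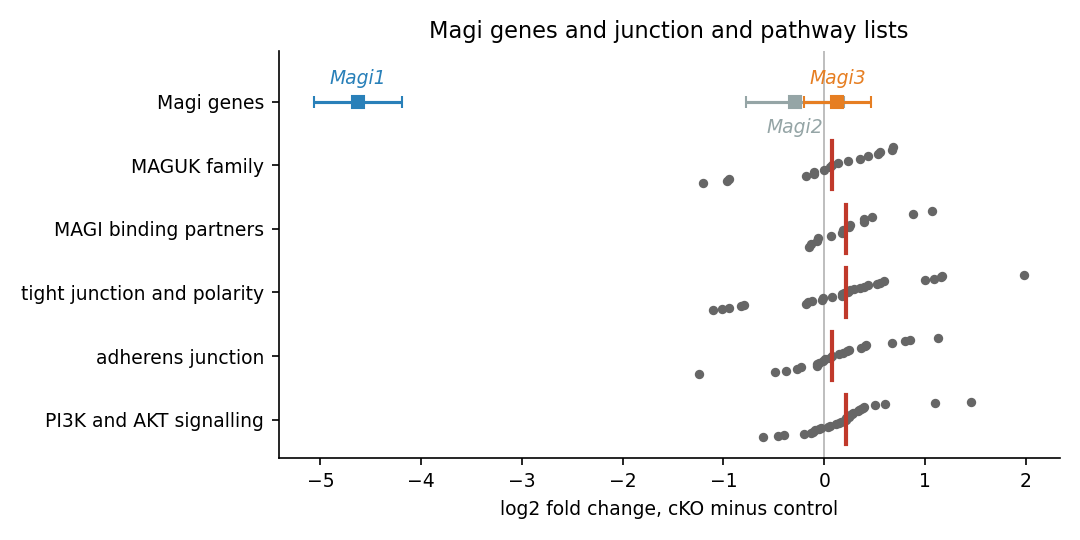
Log2 fold change, cKO over control, of each tested gene in the 5 junction and pathway lists, with 1 point per gene and a red line at each list's median, below the 3 Magi genes with SE bars. The list members lie between -1.24 and 1.98, with Magi1 at -4.62 and Magi3 at 0.13.

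The libraries also differed in markers of other cell types, whose part in the Magi1 values was not tested. Endothelial markers had a summed normalised read count of 15785 and 15212 in cKO mice, against 12343 and 12671 in control mice. The largest counts in these sums were those of Pecam1, also a gene of blood cells, and Adgrl4. Adgrl4 had 5127 and 5186 in cKO mice, against 3958 and 3214 in control mice. Of 20 markers 18 were tested, 11 with a log2 fold change above 0 and 7 below. Of those that did not overlap (50%), 8 were higher and 1 lower in cKO mice. Tek, which names the Cre driver, had 381.7 and 318.2 in cKO mice, against 127.4 and 268 in control mice (log2 fold change 0.91, SE 0.41, adjusted p = 0.76 by limma). Stromal and bone lineage markers were lower in the sum, at 16452 and 19192 in cKO mice, against 30967 and 29108 in control mice, and 9 of 21 did not overlap in that direction. Of all 21 markers, 0 passed by limma or edgeR, and 9 had an unadjusted p under 0.05 by limma, among them Runx2, which was higher in cKO mice. DESeq2 called 5, all lower: Bglap, Col1a1, Col1a2, Sparc and Lpl. Some bone matrix genes differed by more than the sum. Bglap, which encodes osteocalcin, was 8.58-fold lower in cKO mice in the ratio of means, and Col1a1, a type I collagen chain, had 1258 and 3299 normalised reads in cKO mice, against 10275 and 8090 in control mice (4.03-fold lower). Sparc, a matrix protein of bone, had 442 and 678 in cKO mice, against 1740 and 1955 in control mice (3.30-fold lower). Ibsp, also a bone matrix gene, overlapped between genotypes, at 239 and 301 in cKO mice, against 211 and 278 in control mice. So did Dmp1, a matrix gene with few reads, at 18.7 and 11.5 in cKO mice, against 18.5 and 9.57 in control mice. Other abundant members of the list did not follow Bglap, Col1a1 and Sparc either. Runx2, an osteoblast transcription factor, had 7775 and 5471 in cKO mice, against 4892 and 4174 in control mice, and Cxcl12, a chemokine of marrow stroma, had 1752 and 2021 in cKO mice, against 1596 and 2299 in control mice. T and NK cell markers had sums of 17738 and 15360 in cKO mice, against 11990 and 10112 in control mice, with 17 of 22 higher without overlap. DESeq2 called 6 of them, all higher in cKO mice, and limma and edgeR called 0, with 14 at an unadjusted p under 0.05 by limma. Among these, Klrb1c, an NK cell receptor, had 625 and 454 in cKO mice, against 98.8 and 112 in control mice (DESeq2 log2 fold change 2.35, adjusted p = 6.12e-08). B cell and plasma cell markers had sums of 29787 and 30563 in cKO mice, against 23895 and 16024 in control mice. Of 18 tested, 10 were higher without overlap and 0 lower (55.6%). The largest count in each sum was that of Jchain, at 14444 and 17512 in cKO mice, against 10558 and 5417 in control mice. Pax5 was high in cKO mouse 1 only, at 194 and 14.9 in cKO mice, against 7.39 and 11.2 in control mice.

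Summed markers of the marrow's main lineages varied mostly among the control mice, but single erythroid genes differed in this. Slc4a1 varied more between the cKO mice, at 6266 and 335, against 3526 and 10874 in control mice. Car2 varied more between the control mice, at 12819 and 10760 in cKO mice, against 8716 and 33145 in control mice. Erythroid markers summed to 96347 and 52589 in cKO mice, against 64504 and 197014 in control mice, and granulocyte and monocyte markers to 485976 and 639831 in cKO mice, against 832074 and 314567 in control mice. Megakaryocyte markers summed to 19083 and 19910 in cKO mice, against 16350 and 24343 in control mice, and DESeq2 called 2 of them higher in cKO mice, Thbs1 and Selp. The sums of these lineages overlapped between genotypes. Stem and progenitor markers summed to 55298 and 53015 in cKO mice, against 44347 and 48274 in control mice, and DESeq2 called 1, Thy1, higher in cKO mice, a gene also on the T and NK cell list. Among them Kit, the stem cell factor receptor, had 14051 and 12478 in cKO mice, against 10915 and 11537 in control mice, and Cd34 had 13170 and 13116, against 11733 and 8599, so both were abundant in every library. Igll1 in control mouse 2 was the only tested marker at 0 in any library.

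The genes beside Magi1 on chromosome 6 did not show a comparable difference. Of the 3 tested genes on each side in the order of the reference gene table, 0 passed by limma (adjusted p 0.756 or above), 1 had an unadjusted p under 0.05, and edgeR and DESeq2 called 0. Adamts9, a secreted metalloprotease and the nearest on one side, had 49.0 and 71.2 normalised reads in cKO mice, against 23.1 and 19.1 in control mice (log2 fold change 1.45, SE 0.61). Slc25a26, a mitochondrial carrier and the nearest on the other side, had 423.8 and 413.6 in cKO mice, against 387.8 and 424.3 in control mice (0.05, SE 0.26). Neither neighbour was lower in cKO mice beyond its spread. The log2 fold changes of Mrps25, Rbsn, Lrig1 and Kbtbd8 were -0.34, 0.11, -0.32 and 0.29. Tet3 lies on the same chromosome, and of the 93 tested genes between it and Magi1, 0 passed by limma, their median log2 fold change was -0.09, and 37 did not overlap between genotypes (39.8%).

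**Figure D4:**
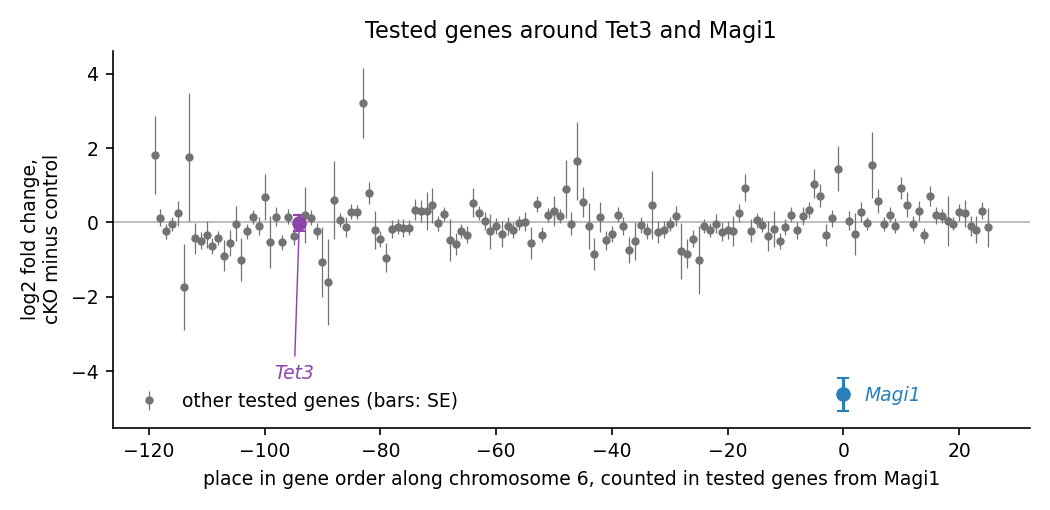
Log2 fold change, cKO over control, of the tested genes on chromosome 6 from 25 genes before Tet3 to 25 genes after Magi1, in the order of the reference gene table, with SE bars and places counted from Magi1. Magi1 at -4.62 is the lowest of the 145 genes drawn, and Tet3 lies at -0.02.

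Around Magi3 on chromosome 3, Rsbn1, Phtf1os, Phtf1, Lrig2, Slc16a1 and Gm6485 had log2 fold changes of 0.89, -1.62, 0.05, 0.26, -0.44 and -0.36, with adjusted p-values of 0.756 or above by limma. Phtf1 overlaps the span of Magi3 on the other strand but shares 0 bases of exon with it. It had 1497 and 1453 normalised reads in cKO mice, against 1388 and 1453 in control mice, without the high control mouse 1 and low control mouse 2 of Magi3. Magi1 shares 0 bases of exon with another annotated gene.

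The genes whose pattern over the 4 libraries was nearest to that of Magi1 were, in order, Fosb, Bglap, Egr1, Fos and Gm13340, by Euclidean distance between centred log2 values among 12881 genes with a mean of at least 50. They were found by their likeness to Magi1, so their direction follows from the search. Fosb, a Fos-family transcription factor switched on early after stimulation, had 14.01 and 16.1 normalised reads in cKO mice, against 185 and 239 in control mice, at a distance of 0.987 beside a median of 4.67 over all these genes. Bglap, also among the bone lineage markers above, had 39.7 and 80.4 in cKO mice, against 289 and 742 in control mice, at a distance of 1.94. Egr1 and Fos, also immediate early genes, had distances of 2.29 and 2.42, so Fosb alone lay near Magi1 in size of difference. For Magi3 the nearest were Cdc37, Sh3bp2, Stt3b, Coro1b and Vcp-rs, at distances of 0.0223 to 0.0399 beside a median of 0.656. Cdc37, a chaperone partner of HSP90, had 9729 and 10757 normalised reads in cKO mice, against 11772 and 7431 in control mice. Its order of the libraries is that of Magi3, with control mouse 1 highest and control mouse 2 lowest, which follows from the search.

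The Magi1 and Magi3 estimates were recomputed under other normalisations, filters, tools and sets of libraries. The Magi1 log2 fold change lay between -4.92 and -4.32 when each library was left out in turn. Each of these fits kept its direction, whereas the sign of Magi3 rested on control mouse 2.

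**Figure D5:**
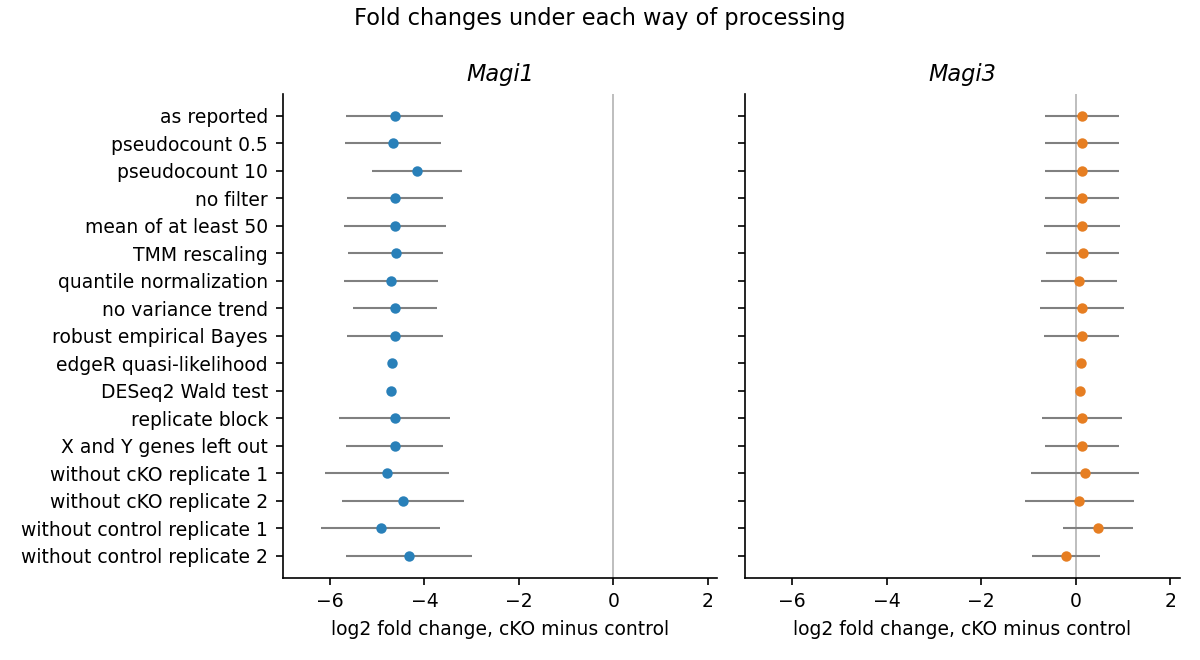
Log2 fold change, cKO over control, of Magi1 (left panel) and Magi3 (right panel) under each setting, with 1 point per setting and 95% intervals as lines where the tool gives one. Magi1 lies between -4.92 and -4.15, and Magi3 lies between -0.21, without control mouse 2, and 0.47, without control mouse 1.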

How the data were processed

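RNA from Lin- bone marrow cells of 2 cKO and 2 control mice was sequenced by the authors, 1 library per mouse. The submitters' processing notes name genome build mm39 and the tools STAR 2.7.9a, Trim Galore 0.6.7, SAMtools, DESeq2 and featureCounts. The counting annotation and any use of strand were details not given in the sources used here. As deposited, the signal values are gene counts that the authors divided by a DESeq2 size factor per library; values do not correct for gene length. Dividing each column by its smallest non-zero value gave whole reads for every gene within 0.1 read, and the smallest read sum of a gene was 41. Columns were matched to libraries by genotype and number. The replicates differed by more than sampling noise (chi-square per degree of freedom 36.4 between the cKO libraries and 288 between the control libraries) and each counted once.

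Genes with a mean of at least 10 were fitted with limma 3.58.1 in R 4.3.3 on log2 of the value plus 1, with empirical Bayes and a variance trend, and p-values were adjusted over all genes tested by Benjamini-Hochberg at 0.05. A log2 fold change on this scale understates the change of low genes. Residual spread came from 2 mice per group; with 4 libraries the smallest p of an exact permutation test is 0.33, and none was used. edgeR 4.0.16 and DESeq2 1.42.0 on the recovered reads, other pseudocounts, filters and normalisations, a replicate block and each library left out were alternatives. The code was tested on simulated data. Counts per kb used GENCODE M21 exons, from another build than the reads, so levels between genes are approximate. Gene order and chromosomes came from the RefSeq table, where 92.1% of genes were found.

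The members and lists were chosen with earlier results of these data known. Text names went to the Magi genes, Tet3, Tek, the 4 members with the smallest p in each list, the 3 nearest tested genes on each side, and the 5 genes of nearest pattern; Kit, Cd34, Igll1, the other cell type markers, the sex-linked genes and Ctnnb1 were named outside this rule, after their values were seen. Some genes that the rule names are not reported here.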

Additional observations from a re-analysis of the deposited data

How the results depend on the processing

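The Magi1 log2 fold change, on which the gene was chosen, was negative under every setting tried and is given without a test. It was -4.62 without a variance trend, with the replicate block and with X and Y genes left out. By construction these settings cannot move the estimate, so the unchanged value does not show stability. They act on its error, and the SE was 0.32, 0.49 and 0.44 in that order. A pseudocount of 10 gave -4.15, and leaving out single libraries gave -4.92 to -4.32. The Magi3 log2 fold change ranged from -0.21, without control mouse 2, to 0.47, without control mouse 1, and passed nowhere. The log2 difference of the summed counts ranged from -1.40 to -1.25. The 12 genes called over all genes became 112 with DESeq2, 2 without X and Y genes and 8 with the replicate block, and leaving out each library gave 10 to 393, the highest without control mouse 1; without cKO mouse 1 there were 26. Within the junction and PI3K lists, the 0 members called became 1 with DESeq2 (Inpp4b) and lay between 0 and 2 when single libraries were left out; the 2, without control mouse 1, were Amot and Cldn13. The replicate numbers were taken to share only a number, since deviations of same-numbered libraries from their group means correlated at -0.07. The cause of these changes was not tested. Depth limits Magi1 in the cKO mice, at 20 and 16 reads, and 2 mice per group limit every test.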
